A study of Rattus norvegicus with 30 samples.

Results

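Bone marrow mesenchymal stem cells (BMSCs) of the rat that had spent 3 h in osteogenic medium (OS 3 h, 3 samples) were compared with undifferentiated BMSCs (CON, 3 samples), which make up 6 of the 30 samples of the series. The samples were chosen by their titles, and all genes that could be tested are described. All cells were BMSCs of Sprague Dawley rats. They came from the femurs and tibias of 3 female animals aged 3 weeks and were used at passage 2, after 2 days in culture. Each sample pooled 3 cultures, so that p-values measure the spread between pooled cultures and not between animals. CON cells were not induced and carry the time 0 h, whereas OS 3 h cells received a commercial osteogenic differentiation medium. No uninduced cells kept for 3 h were analysed here, so the action of the osteogenic components cannot be told apart from that of fresh medium or of time. Cells given adipogenic (AD) or chondrogenic (CH) medium for 3 h, 3 samples each, were a further reference that shares the medium change, and osteogenic cells at 12 h and 3 d (72 h) are given as a description.

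BMSCs are the stromal progenitors of bone marrow, which can form bone, fat and cartilage cells. Osteogenic media commonly supply a glucocorticoid, ascorbate and a source of phosphate, though the composition of the medium used was not given in the sources used here. In culture, the first hours after such a stimulus are a time of signalling and of transcription factor genes, whereas the enzymes and matrix proteins of mineralising osteoblasts, such as alkaline phosphatase and osteocalcin, are produced after days to weeks.

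The 6 libraries held 6329536 to 7229002 reads in total, and the genes listed held 53.7 to 54.2% of them in CON and 63.1 to 68.8% in OS 3 h. Levels are CPM, the reads of a gene scaled by all reads of its library and not by gene length, and 4363 of 9999 gene names, those with at least 1 CPM in at least 3 of the 30 samples, were tested. A floor of 3 reads, which covers counting error only, corresponded to 0.415 to 0.474 CPM in these libraries. Several genes that nearly every cell uses were listed close to 0. Actb, which encodes beta-actin, was listed at 3.01, 0.557 and 2.43 CPM in CON and at 0.313, 1.26 and 5.39 CPM in OS 3 h. Vim, the intermediate filament vimentin, did not pass 1.58 CPM in any of the 30 samples, and the ribosomal protein genes Rpl35 and Rpl23a were listed at 0 in all 6 libraries. A low or zero value in these data is therefore given as listed and not as absence of the transcript, and of the genes counted below, 419 that were higher and 195 that were lower had a mean of at least 5 CPM in their higher group.

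The third OS 3 h library stood apart from its group. In it, 366 of the 4363 genes lay at least 1 log2 unit from the mean of the other OS 3 h libraries (241 above and 125 below), whereas 115 and 133 did so for the first and second library and 37 to 53 for the CON libraries. The chi-square per degree of freedom between its counts and those of the first and second library was 65.89 and 76.65, against 3.45 between those 2 and 3.36 to 6.02 between CON libraries. The number of genes called is therefore given with and without it, as is the count of a gene list where it moved without it.

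Of the markers of BMSCs, Thy1 (CD90), a surface glycoprotein, was at 7736 to 8280 CPM in CON and at 5655 to 7260 CPM in OS 3 h, and Cd44, the hyaluronan receptor, at 579 to 628 and 1202 to 2014 CPM. Eng (CD105), also used to define these cells, was listed at no more than 0.143 CPM and Vcam1 at 0. The 9 listed leukocyte markers together summed to 0.152 to 1.58 CPM in CON and 0.316 to 0.692 CPM in OS 3 h, with Lyz2, Cybb and Adgre1 at 0. The 6 endothelial markers summed to 3.49 to 4.74 and 3.32 to 5.53 CPM, and the 3 erythroid ones to 0.696 to 1 and 0.313 to 0.553 CPM. The 10 listed pericyte and smooth muscle markers summed to 124 to 139 CPM in CON and 556 to 629 CPM in OS 3 h. Of the 6 tested, Cspg4, Tagln and Cnn1 were called higher (4 members without the third OS 3 h library), and Acta2, a defining marker of these cells, was listed at 0 in all 6 libraries.

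At 3 h, 801 genes (18.4% of those tested) differed between OS and CON by at least 1 log2 unit at an adjusted p under 0.05 (limma, with Benjamini-Hochberg adjustment over all genes tested, used for every p below). Of these, 510 (11.7%) were higher and 291 (6.67%) lower. The counts of called members in the gene lists below are to be read beside these shares over all genes. The median log2 fold change was 1.44 for the higher and -1.47 for the lower genes. Fold changes were taken on log2(CPM + 1), so those of genes near 1 CPM are understated. A change of at least 2 log2 units was found for 106 higher and 61 lower genes, and one of at least 3 for 23 and 13. Samples of both groups did not overlap for 2068 genes (47.4%), which included 792 of those called. Without the third OS 3 h library, 461 genes were higher and 305 lower, among them 418 and 261 of those called with it. The balance depended on the scaling between samples. Median-ratio scaling lowered the log2 fold changes by a median of 0.18 and gave 376 higher and 419 lower genes, so that higher genes made up 47.3% in place of 63.7% of the calls. All 291 lower genes kept their call under that scaling, and the 134 calls that were lost were those of higher genes.

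**Figure D1:**
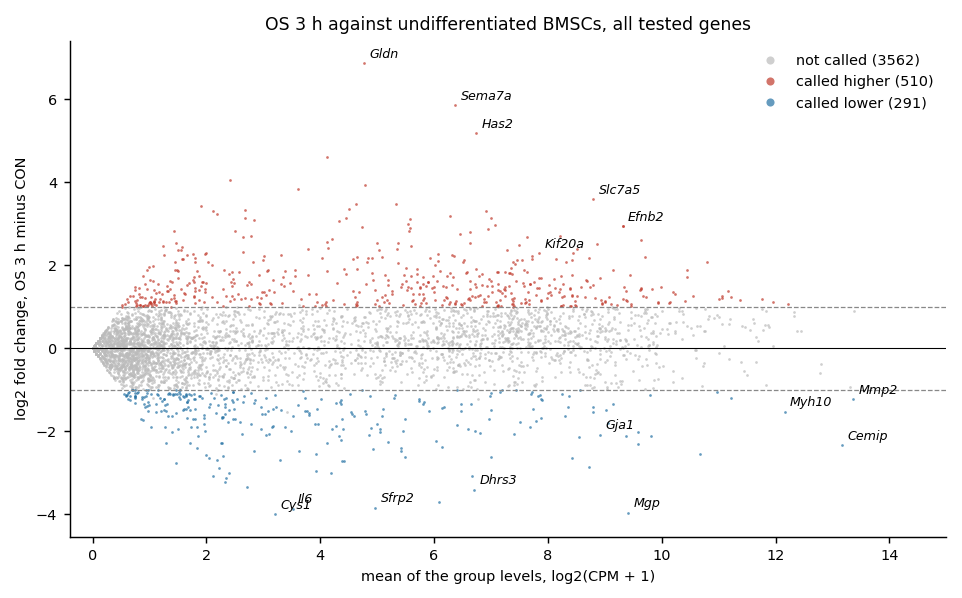
Log2 fold change between OS 3 h and CON (vertical) against the mean level of both groups on the log2(CPM + 1) scale (horizontal) for the 4363 tested genes, each a point, with 510 genes called higher in red, 291 called lower in blue and dashed lines at 1 and -1. Falls are seen up to the highest levels, as for Cemip, Mmp2 and Myh10, whereas the largest rises, of Gldn, Sema7a and Has2, belong to genes of low or middle mean level.

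The largest rises were those of Gldn, Sema7a and Has2. Gldn, which encodes gliomedin, a membrane protein known from nerve fibres, was at 1.86, 1.11 and 1.67 CPM in CON and at 291, 300 and 290 CPM in OS 3 h, which is 6.87 on the log2 scale (SE 0.37, adjusted p = 2.7e-15). The OS 3 h libraries lay within 10 CPM of each other, and all were far above the CON libraries. Sema7a, a membrane-bound semaphorin that signals through integrins, was at 12.3, 9.47 and 7.58 CPM in CON and at 533, 503 and 878 CPM in OS 3 h (log2 fold change 5.86, SE 0.17, adjusted p = 1.14e-21). The third OS 3 h library was the highest. Has2, the synthase that makes hyaluronan at the plasma membrane, was at 18.8, 18.1 and 13.0 CPM in CON and at 706, 708 and 513 CPM in OS 3 h (5.19, SE 0.27, adjusted p = 1.15e-15). Cemip, which is needed for the breakdown of hyaluronan and was the most abundant of the listed genes in CON, moved the other way, from 20866, 20136 and 20114 CPM to 3736, 3530 and 5078 CPM (log2 fold change -2.33, SE 0.13, adjusted p = 7.72e-15). The synthesis gene thus rose and the breakdown gene fell in the same libraries, and Cd44, the receptor of their common polymer, rose from 591, 579 and 628 CPM to 1961, 2014 and 1202 CPM (1.49, SE 0.13, adjusted p = 5.07e-11).

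Crispld2, Socs2 and Plau were also among the 15 largest rises. Crispld2, a secreted protein known to be induced by glucocorticoids, was at 2.15, 2.79 and 2.58 CPM in CON and at 86.8, 68.4 and 100 CPM in OS 3 h. Socs2, a feedback inhibitor of cytokine signalling, was listed at 0.716, 0 and 0.152 CPM in CON and at 25.4, 25.6 and 11.9 CPM in OS 3 h. Plau, the urokinase plasminogen activator, went from 1.72, 1.53 and 3.49 CPM to 38.1, 37.0 and 58.7 CPM. Each of these rose by 3.83 to 4.61 log2 units, with adjusted p between 4.17e-16 and 6.77e-11. A call and no overlap between groups were conditions for entering the 15. The 15 also held Gprc5a, Adamts8, which encodes a secreted metalloprotease, Akap12, a scaffold for kinase signalling, Ngfr, the low-affinity neurotrophin receptor, Cotl1, Fgl2 and Dlk2.

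The 15 largest falls included Mgp, Sfrp2, Lum, Dhrs3 and Il6. Mgp, which encodes matrix Gla protein, an inhibitor of mineralisation, was at 2750, 2604 and 2603 CPM in CON and at 199, 188 and 131 CPM in OS 3 h (log2 fold change -3.96, SE 0.23, adjusted p = 1.28e-14). Sfrp2 and Frzb, both secreted antagonists of Wnt proteins, were at 116, 120 and 113 CPM and at 13.9, 13.9 and 12.9 CPM in CON, against 5.01, 8.53 and 8.58 CPM and 1.25, 0 and 1.11 CPM in OS 3 h. Their log2 fold changes were -3.84 (SE 0.75, adjusted p = 0.000108) and -3.12 (SE 0.40, adjusted p = 1.61e-07). Lum, the keratan sulfate proteoglycan lumican, went from 55.7, 47.9 and 47.3 CPM to 4.07, 6.79 and 5.53 CPM. The SE of Sfrp2 is estimated from the spread within all 10 groups of the series. Dhrs3, a retinaldehyde reductase that limits retinoic acid, fell from 327, 348 and 335 CPM to 30.2, 28.4 and 34.4 CPM (log2 fold change -3.40, SE 0.11, adjusted p = 6.64e-21). Il6, the cytokine interleukin-6, fell from 43.4, 39.3 and 44.1 CPM to 2.82, 1.58 and 1.66 CPM, and the kinase gene Alpk1 from 239, 252 and 231 CPM to 19.9, 20.9 and 13.3 CPM. Cys1, C1s, Wfdc21, Meox2, Gpr146, Apln, Mab21l3 and Cdh23 completed the 15 largest falls, with log2 fold changes of -3.99 to -2.89.

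**Figure D2:**
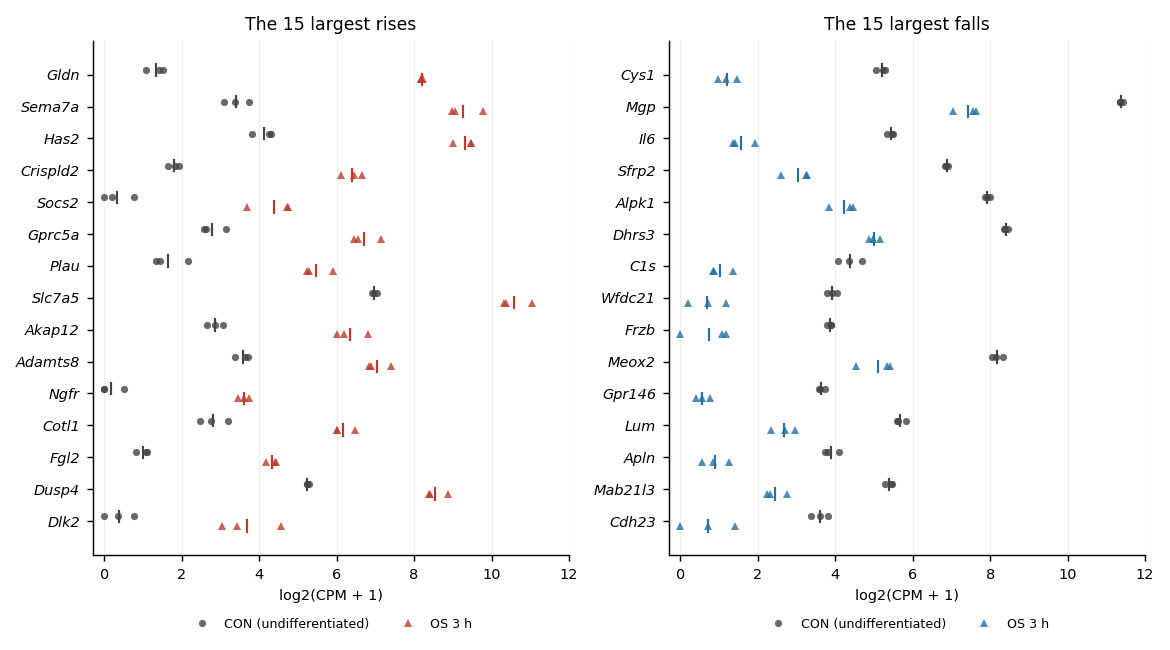
Level in each library on the log2(CPM + 1) scale for the 15 genes with the largest rises (left) and the 15 with the largest falls (right), with CON as grey circles, OS 3 h as coloured triangles and a vertical bar at each group mean. The genes were chosen among those whose groups do not overlap, and the gap between group means is widest for Gldn among the rises and for Cys1 and Mgp among the falls.

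Most tested genes of mitosis and of DNA replication were higher, against 11.7% higher and 6.67% lower over all genes tested. Mitosis genes, which build and control the spindle and the centromeres, were higher in 24 of 31 tested members and lower in 0, with a median log2 fold change of 1.45 against 0.09 over all genes tested. Cdc20, an activator of the anaphase-promoting complex, was at 38.1, 43.6 and 38.2 CPM in CON and at 209, 218 and 287 CPM in OS 3 h (2.53, SE 0.26, adjusted p = 2.21e-09). Birc5 (survivin), a subunit of the chromosomal passenger complex, went from 14.3, 21.9 and 12.7 CPM to 99.7, 99.4 and 93.2 CPM, and Ccnf (cyclin F) from 47.8, 43.5 and 42.3 CPM to 323, 285 and 401 CPM. Cenpa, the histone H3 variant of centromeres, rose from 7.02, 6.83 and 5.16 CPM to 37.9, 38.7 and 59.1 CPM, and the kinesin Kifc1 from 27.8, 35.4 and 34.0 CPM to 205, 187 and 293 CPM. In each case the OS 3 h libraries lay at least 4 times as high as the CON libraries. The 7 tested members that did not pass, among them Ube2c, Nusap1 and Cdc25b, had log2 differences of -0.08 to 0.98 and means of at most 2.42 CPM. Median-ratio scaling left 22 of the 24 calls, and 23 members were called without the third OS 3 h library.

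The promoters of the 5 mitosis genes just described are shown because their genes rose together and because each holds 2 short motifs. The 250 bases upstream of each annotated start are given 5′ to 3′ on the gene's strand (RefSeq, GRCr8), and capitals mark the CCAAT box, CCAAT or ATTGG, and the cell cycle homology region, TTTGAA or TTCAAA, on either strand.
Ccnf (chr10:13783670-13783919, minus strand): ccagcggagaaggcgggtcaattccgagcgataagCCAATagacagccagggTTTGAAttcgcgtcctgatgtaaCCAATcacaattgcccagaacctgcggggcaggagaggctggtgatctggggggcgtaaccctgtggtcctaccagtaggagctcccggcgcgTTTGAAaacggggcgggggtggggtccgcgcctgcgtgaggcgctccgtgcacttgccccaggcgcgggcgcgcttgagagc
Kifc1 (chr20:5000679-5000928, plus strand): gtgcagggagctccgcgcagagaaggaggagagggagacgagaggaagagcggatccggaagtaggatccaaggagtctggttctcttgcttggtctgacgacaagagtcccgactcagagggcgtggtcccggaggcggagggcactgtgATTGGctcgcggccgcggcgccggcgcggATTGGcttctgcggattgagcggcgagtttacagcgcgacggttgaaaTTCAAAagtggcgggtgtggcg
Cenpa (chr6:31431553-31431802, minus strand): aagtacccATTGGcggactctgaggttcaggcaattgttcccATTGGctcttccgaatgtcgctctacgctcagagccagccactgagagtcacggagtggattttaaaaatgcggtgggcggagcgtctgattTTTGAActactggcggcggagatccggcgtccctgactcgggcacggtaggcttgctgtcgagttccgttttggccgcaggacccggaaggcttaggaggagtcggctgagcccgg
Birc5 (chr10:103571896-103572145, plus strand): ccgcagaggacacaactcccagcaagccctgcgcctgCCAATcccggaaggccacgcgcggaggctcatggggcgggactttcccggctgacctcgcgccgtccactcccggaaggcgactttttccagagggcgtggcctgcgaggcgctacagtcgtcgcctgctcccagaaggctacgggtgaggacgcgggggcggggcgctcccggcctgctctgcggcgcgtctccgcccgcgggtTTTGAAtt
Cdc20 (chr5:137255800-137256049, minus strand): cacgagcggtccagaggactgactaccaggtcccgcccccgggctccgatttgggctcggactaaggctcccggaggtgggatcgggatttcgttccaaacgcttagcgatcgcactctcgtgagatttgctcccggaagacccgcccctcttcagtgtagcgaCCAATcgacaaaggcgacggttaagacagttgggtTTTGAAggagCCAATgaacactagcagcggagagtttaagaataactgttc
In the promoter of Cdc20, CCAAT boxes began 86 and 41 bases and the cell cycle homology region 51 bases before the start. Of the 24 higher mitosis genes, 19 had a promoter in the reference table, and 11 of these (57.9%) held both motifs, compared with 126 of 3339 tested genes (3.77%) and 5.87% of all 33469 promoters of the table. These motifs are known from promoters of late cell cycle genes and were searched after the rise of the group had been seen. They are a description of the letters in this window, and no binding was measured.

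DNA replication and repair genes were higher in 14 of 20 tested members and lower in 0 (median log2 fold change 1.43). They included the helicase subunits Mcm3, from 63.5, 73.1 and 66.4 CPM to 338, 355 and 370 CPM, and Mcm6, from 102, 102 and 94.2 CPM to 466, 401 and 464 CPM. The licensing factor gene Cdt1 rose from 20.3, 17.8 and 19.3 CPM to 97.1, 84.7 and 160 CPM, and the GINS subunits Gins1 and Gins3 rose by 2.15 (SE 0.26, adjusted p = 5.81e-08) and 2.18 (SE 0.19, adjusted p = 1.14e-10). Clamp loader genes Rfc2, Rfc3 and Rfc4 and the nucleotide synthesis genes Rrm1 and Tyms were among the other calls. Histone genes were higher in 10 of 23 tested members and lower in 0. All 10 were replication-type genes of the Hist1 and Hist2 clusters, such as Hist1h2ao, from 143, 181 and 146 CPM to 680, 753 and 870 CPM. The replacement histone gene H3f3b, which is not limited to S phase, was at a mean of 1682 CPM in CON and 1021 CPM in OS 3 h (log2 difference -0.72, under the threshold). Its means were 2494 CPM in AD 3 h and 1872 CPM in CH 3 h. Copies within the Hist clusters are nearly identical, so reads may be split between them. Replication-type histone transcripts also lack a poly(A) tail, and the sources name both an mRNA kit and ribosomal RNA removal for these libraries. Rbl2, a retinoblastoma-like protein that represses cell cycle genes in quiescent cells, fell from 43.7, 49.2 and 48.8 CPM to 16.3, 17.7 and 12.0 CPM (-1.58, SE 0.16, adjusted p = 3.13e-09), the single call among 4 tested cyclin and CDK inhibitor genes. Of 9 tested kinesin genes, Kif11, Kif20a, Kif22 and Kifc1, which move chromosomes or the spindle, were higher. After median-ratio scaling, 13 replication genes and 10 histone genes were called, and without the third OS 3 h library 14 and 9.

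Genes that make ribosomes formed the group with the highest median, 1.65. Of 16 tested ribosome biogenesis genes, 12 were higher and 0 lower. Rrp12, a factor for the export and maturation of ribosomal subunits, went from 80.5, 82.2 and 68.5 CPM to 449, 452 and 613 CPM (2.68, SE 0.14, adjusted p = 1.15e-15). Bysl and Bop1, which act in the maturation of the small and the large subunit, rose from 73.3, 87.9 and 78.7 CPM to 329, 302 and 408 CPM and from 91, 69.2 and 86.0 CPM to 272, 281 and 407 CPM. Rrp1b, Utp20, Nip7 and Npm1 (nucleophosmin) were also called. The 12 also count Nme1 and Nme2, which encode nucleoside diphosphate kinases. The other 4 tested members (Ddx10, Ltv1, Polr1c and Polr3k) had log2 differences of 0.28 to 0.80. Genes for the proteins of the ribosome itself had lower medians, a difference between lists that was not tested. Cytosolic ribosomal protein genes were called higher in 7 of 31 members (median 0.81), of which Rps3 rose from 738, 706 and 700 CPM to 1607, 1536 and 2572 CPM, and mitochondrial ribosomal protein genes in 7 of 30 (median 0.66). These 2 counts fell to 3 and 1 under median-ratio scaling and to 6 and 5 without the third OS 3 h library, whereas 11 and 12 ribosome biogenesis genes were called. Proteasome genes gave 3 calls of 21, namely Psma5, Psmd13 and Psmb4, all of which were lost under that scaling and also without the third OS 3 h library. Of 38 tested respiratory chain and ATP synthase genes, 2 were higher (Uqcrc1 and Atp5f1b).

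Genes of the integrated stress response, which raises amino acid supply through the factor ATF4, were higher in 9 of 18 tested members and lower in 0 (median 1.05). Slc7a5, the large neutral amino acid transporter, was at 125, 120 and 130 CPM in CON and at 1323, 1290 and 2101 CPM in OS 3 h (3.60, SE 0.17, adjusted p = 8.8e-17). Mthfd2, a mitochondrial enzyme of folate metabolism, rose from 41.8, 38.9 and 44.7 CPM to 357, 328 and 466 CPM. The serine synthesis genes Phgdh and Psph rose from 7.59, 10.4 and 7.89 CPM to 67.5, 69.5 and 79.8 CPM and from 13.3, 10 and 13.2 CPM to 68.5, 65.7 and 95.4 CPM. Yars, a tRNA synthetase, Chac1 and Sesn2 were called as well. Atf4 itself had a mean of 902 CPM in CON and 1771 CPM in OS 3 h, a log2 difference of 0.98 just under the threshold. Ppp1r15a, which ends the response, had a log2 difference of -0.88, and this is the member that median-ratio scaling called lower, beside 8 higher ones. Of the other members not called, Asns, Cth and Nupr1 had log2 differences of 0.40, 0.01 and -0.16. The tRNA synthetase genes Eprs, Iars, Sars and Wars had 0.75 to 0.87. All of these had means of at most 7.39 CPM in CON and OS 3 h. None of 13 tested ER chaperone and secretory genes passed the test (median 0.46), and 3 of 11 heat shock genes did, namely Cryab, Fkbp4 and Hspb8, the last of which lost its call under median-ratio scaling and without the third OS 3 h library. Of 10 amino acid and nutrient transport genes 3 were higher (2 without the third OS 3 h library), and the glutamine transporter gene Slc1a5 rose from 65.7, 63.1 and 79.5 CPM to 225, 222 and 221 CPM.

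**Figure D3:**
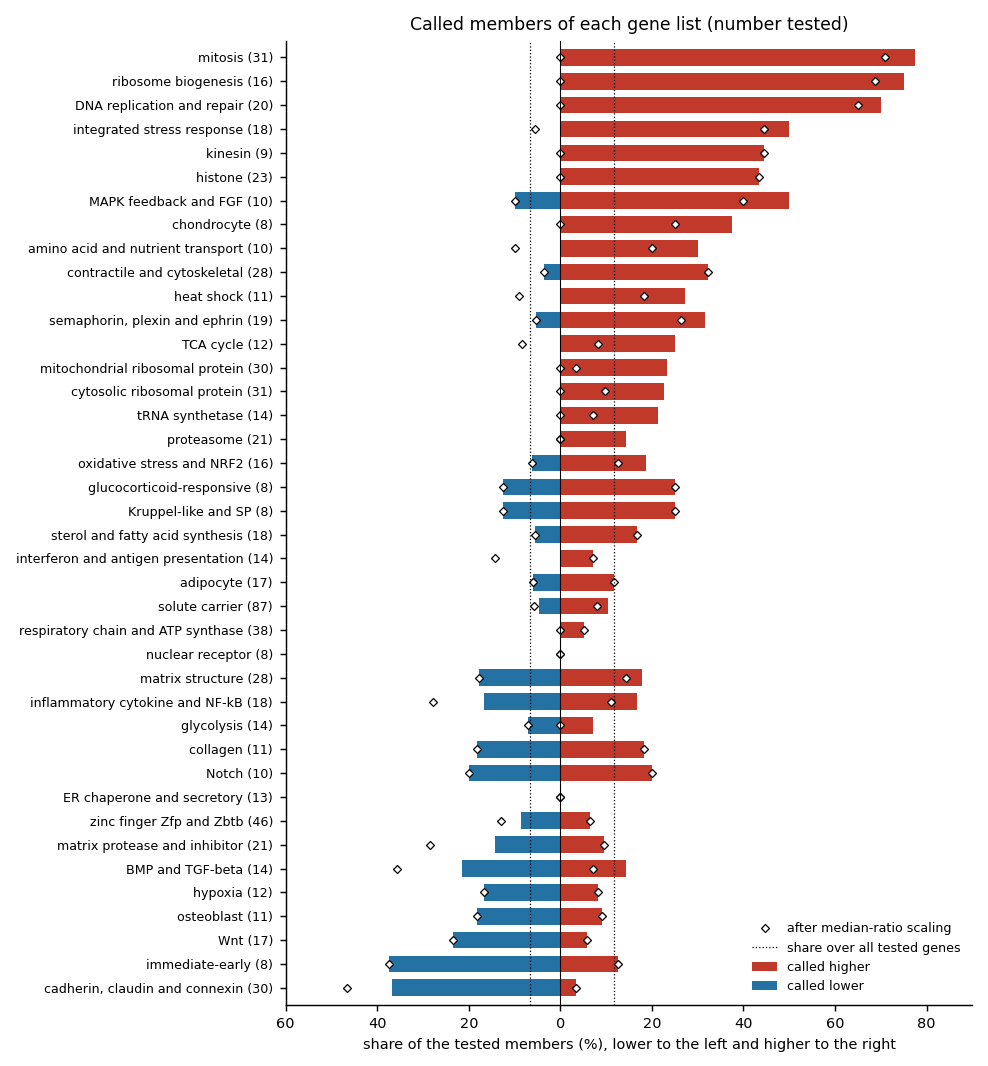
Share of the tested members (horizontal, %) called higher (red, right) and lower (blue, left) at OS 3 h against CON for each gene list with at least 8 tested members, the number tested in brackets, with open diamonds for median-ratio scaling and dotted lines for the share over all tested genes (11.7% higher, 6.67% lower). Mitosis, ribosome biogenesis and DNA replication stand at the top, and the lower shares are largest for immediate-early genes, 3 of 8, and for cadherin, claudin and connexin genes, 11 of 30.

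Signalling genes moved in both directions. Among MAPK feedback and FGF genes, 5 of 10 tested members were higher and 1 lower (6 and 1 without the third OS 3 h library). Dusp4 and Dusp6, phosphatases that switch off ERK kinases, went from 36.4, 37.9 and 36.7 CPM to 338, 331 and 468 CPM and from 32.2, 39.3 and 45.8 CPM to 107, 103 and 209 CPM, and Dusp2, Dusp10 and Spred2 were also called, Dusp10 not after median-ratio scaling. Fgf9, listed at 1.39 to 2.43 CPM in CON, was lower. Immediate-early genes gave 1 higher and 3 lower calls among 8 tested. Klf4, a Kruppel-like factor, rose from 217, 232 and 241 CPM to 647, 676 and 847 CPM (1.64, SE 0.21, adjusted p = 1.57e-07). Jun, a subunit of the AP-1 factor, fell from 22.6, 24.8 and 18.5 CPM to 6.89, 7.58 and 6.64 CPM, and the growth arrest genes Gadd45a and Gadd45b fell from 9.02, 9.19 and 14.4 CPM to 0.627, 0.474 and 1.94 CPM and from 194, 206 and 212 CPM to 88.1, 92.3 and 116 CPM. The ephrin ligand genes Efnb2 and Efnb1 rose from 223, 233 and 228 CPM to 1675, 1729 and 1886 CPM and from 48.6, 57.2 and 54.0 CPM to 181, 183 and 254 CPM, and the receptor gene Epha2 from 116, 109 and 116 CPM to 630, 628 and 1029 CPM. They were among the 6 higher calls, against 1 lower, of 19 tested semaphorin, plexin and ephrin genes.

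In the BMP and TGF-beta pathway, 2 of 14 tested genes were higher and 3 lower (2 and 4 without the third OS 3 h library). These were 14.3% and 21.4%, against 11.7% and 6.67% over all genes tested. Id2, an inhibitor of basic helix-loop-helix factors and a target of BMP signalling, fell from 41.3, 43.0 and 37.0 CPM to 8.93, 10.9 and 6.36 CPM (-2.11, SE 0.24, adjusted p = 1.66e-08). The name Id2 stands on 2 rows that were summed. Tested apart, the row at up to 1.29 CPM was not called (-0.63, SE 0.29, adjusted p = 0.0883), while the row that holds most of the reads was (-2.14, SE 0.26, adjusted p = 4.07e-08). Tgfbr3 (betaglycan), a co-receptor, went from 853, 852 and 885 CPM to 282, 282 and 365 CPM, and Inhbb, an activin subunit, from 528, 570 and 506 CPM to 194, 201 and 199 CPM. Gdf6, a BMP ligand at 2.51 to 8.02 CPM in OS 3 h, and Ctgf were higher, the latter not after median-ratio scaling, which gave 1 higher and 5 lower members. Ctgf also lost its call without the second CON library (0.93, adjusted p = 0.0611). Id3 was at 683, 689 and 770 CPM in CON and at 305, 303 and 558 CPM in OS 3 h, a log2 difference of -0.94 (SE 0.20, adjusted p = 0.000249). It missed the size threshold, but passed it under median-ratio scaling and without the third OS 3 h library. Wnt pathway genes were lower in 4 of 17 tested members and higher in 1. Besides Sfrp2 and Frzb, Lgr5, a receptor for R-spondins, fell from 30.1, 26.6 and 26.2 CPM to 4.07, 2.84 and 6.09 CPM, and Dkk3 was lower at under 5 CPM. Of 10 tested Notch genes, 2 were higher and 2 lower. Notch2, a receptor, rose from 397, 375 and 380 CPM to 1068, 1022 and 1138 CPM (1.48, SE 0.10, adjusted p = 2.98e-13), and the ligand gene Dll1 and the repressor gene Hes6 fell at levels under 8 CPM.

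Of 18 tested inflammatory and NF-kB genes, 3 were higher and 3 lower, and 2 and 5 after median-ratio scaling. The chemokine genes Ccl7 and Ccl2, which attract monocytes, fell from 1116, 1130 and 1145 CPM to 161, 160 and 144 CPM (-2.86, SE 0.36, adjusted p = 1.32e-07) and from 1428, 1257 and 1429 CPM to 328, 329 and 292 CPM (-2.11, SE 0.34, adjusted p = 5.6e-06). Cxcl1, which attracts neutrophils, rose from 2996, 3574 and 3120 CPM to 7618, 8070 and 5113 CPM (1.08, SE 0.13, adjusted p = 4.23e-08), but lost its call under median-ratio scaling and without the first or the second OS 3 h library. Il1b and Cxcl10 were higher, at no more than 10.8 CPM.

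Of genes known to respond to glucocorticoids, 8 were listed and tested, and 2 rose and 1 fell. Besides Crispld2, Tsc22d3 (GILZ), a classical target of the glucocorticoid receptor, rose from 31.1, 26.9 and 25.3 CPM to 76.9, 60.2 and 100 CPM (1.45, SE 0.15, adjusted p = 4.78e-09). Rgcc fell from 5.16, 6.27 and 6.37 CPM to 0.313, 1.90 and 4.01 CPM, and its call was lost without the first OS 3 h library. The core of the glucocorticoid response element, ACANNNTGT, was searched on both strands in the 250 bases upstream. It was held by 3.01% of 399 promoters of higher genes, 3.20% of 219 of lower genes and 3.02% of 3339 of tested genes, and by 5.81% of all promoters of the table. None of the promoters of Tsc22d3, Crispld2 and Rgcc held it in this window. The cAMP response element, TGACGTCA, was held by 4.26% of promoters of higher and 2.74% of lower genes against 2.82% of tested genes, and the AP-1 site, TGANTCA, by 5.76% and 8.68% against 4.91%. For the NF-kB site, GGGANTTTC, these shares were 1.5%, 0.913% and 0.839%, for the E-box, CACGTG, 6.52%, 7.76% and 7.64%, and for the hypoxia response element, NACGTG, which includes every E-box, 21.1%, 21.5% and 21.0%.

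Of 11 tested osteoblast genes, 1 was higher and 2 lower (1 and 1 without the third OS 3 h library). Dlx3, a homeobox factor of osteoblast progenitors, rose from 27.9, 29.4 and 31.7 CPM to 95.6, 95.3 and 111 CPM (1.73, SE 0.30, adjusted p = 1.64e-05). Tnfrsf11b (osteoprotegerin), which restrains osteoclasts, fell from 300, 325 and 281 CPM to 147, 165 and 114 CPM (-1.10, SE 0.19, adjusted p = 2.63e-05), but not past the size threshold without the third OS 3 h library. Mgp was the other lower member. Alpl (alkaline phosphatase) was listed at 0 in all 6 libraries, Sp7 (osterix) at 0 except for 0.138 CPM in the third OS 3 h library, and Spp1 (osteopontin) at 0 except for 0.316 CPM in the second. Bglap (osteocalcin) was listed at 0, 0.139 and 0.455 CPM in CON and at 0.940, 0.316 and 0.277 CPM in OS 3 h, and none of these 4 genes was tested. Ibsp (bone sialoprotein) was at 2.86, 2.65 and 2.12 CPM in CON and at 3.92, 3.63 and 2.35 CPM in OS 3 h, which did not pass the test (0.27, SE 0.28, adjusted p = 0.502).

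Of 17 tested adipocyte genes, 2 (11.8%) were higher and 1 (5.88%) lower, near the 11.7% and 6.67% over all genes tested. Fabp5, a fatty acid binding protein, rose from 36.2, 34.5 and 35.9 CPM to 173, 159 and 190 CPM, and Fasn (fatty acid synthase) from 694, 697 and 733 CPM to 2178, 2094 and 3985 CPM. Lpl (lipoprotein lipase) fell from 721, 663 and 777 CPM to 267, 283 and 268 CPM (-1.40, SE 0.32, adjusted p = 0.000676). Pparg, the master regulator of fat cells, was listed at no more than 0.139 CPM. Of 8 tested chondrocyte genes, Sox9, Sox11 and Runx3, which encode transcription factors, were higher. Sox9 went from 46.6, 46.8 and 50.8 CPM to 99.2, 99.5 and 103 CPM (1.05, SE 0.14, adjusted p = 4.51e-07) and lost its call under median-ratio scaling. Runx3, at under 3 CPM, lost its call without the third OS 3 h library. Acan, Sox6 and Col10a1, of cartilage, were listed at 0 in all 6 libraries.

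Of 28 tested matrix structure genes, 5 were higher and 5 lower (4 and 6 without the third OS 3 h library). Apart from Has2, Cd44 and Cemip, described above, 3 were higher and 4 lower. Sdc1 (syndecan-1), a heparan sulfate proteoglycan of the cell surface, rose from 152, 155 and 160 CPM to 706, 704 and 1133 CPM, and Spon2 from 150, 143 and 151 CPM to 343, 355 and 639 CPM. Emilin1, a glycoprotein of elastic fibres, fell from 54.7, 66.7 and 48.1 CPM to 11.8, 16.7 and 14.5 CPM. Among matrix proteases and inhibitors, 2 of 21 were higher and 3 lower (2 and 5 without the third OS 3 h library). Mmp2, a gelatinase that was second only to Cemip in the mean of the 6 libraries, fell from 15811, 15663 and 16224 CPM to 6038, 5854 and 8836 CPM (-1.23, SE 0.18, adjusted p = 1.36e-06), and missed the size threshold after quantile normalization (-0.76). The aggrecanase gene Adamts4 fell from 53.3, 56.0 and 47.9 CPM to 6.58, 6 and 8.99 CPM, in contrast to Adamts8, which rose from 12.2, 9.33 and 11.4 CPM to 118, 113 and 168 CPM. The same list had 6 lower members after median-ratio scaling.

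Of 30 tested cadherin, claudin and connexin genes, 11 were lower and 1, Cldn1, was higher (median -0.56). Cldn1 lost its call without the third CON library (adjusted p = 0.0597). Without the third OS 3 h library 11 were lower and 2 higher, and after median-ratio scaling 14 were lower and 1 higher. Gja1 (connexin 43), which forms the gap junctions of bone-forming cells, went from 936, 888 and 1080 CPM to 308, 256 and 148 CPM (-2.08, SE 0.20, adjusted p = 9.44e-10), and the third OS 3 h library was the lowest. Of the 11 lower members, 9 were clustered protocadherins, such as Pcdhga9, from 58.3, 60.6 and 56.7 CPM to 12.4, 14.2 and 12.3 CPM, and Pcdhgb6, from 66.7, 54.6 and 56.0 CPM to 20.7, 17.5 and 16.6 CPM. Protocadherins of the gamma cluster share their last exons, so reads cannot be fully divided among them, and their calls are not independent. Cdh11, the cadherin of osteoblasts, was at 518 to 567 CPM in CON and 515 to 676 CPM in OS 3 h. Contractile and cytoskeletal genes were higher in 9 of 28 tested members and lower in 1. Tubb6 and Tuba1c, which encode tubulins, rose from 320, 324 and 316 CPM to 1812, 1755 and 2352 CPM and from 16.0, 16.6 and 17.6 CPM to 129, 120 and 126 CPM. Tagln and Cnn1, actin-binding proteins of smooth muscle, rose from 11.5, 14.8 and 13.2 CPM to 54.5, 56.6 and 77.9 CPM and from 87.1, 88.7 and 88.0 CPM to 382, 393 and 387 CPM. These 2 are also pericyte and smooth muscle markers, and the part of cell composition in the result was not tested, since fewer cells of a type and less RNA per cell cannot be told apart in bulk samples. Myh10, non-muscle myosin heavy chain IIB, fell from 7812, 7945 and 7498 CPM to 2893, 2829 and 2367 CPM (-1.53, SE 0.11, adjusted p = 1.08e-12).

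Epas1, which encodes the hypoxia-inducible factor HIF-2 alpha, rose from 366, 383 and 380 CPM to 1279, 1294 and 1315 CPM (1.78, SE 0.15, adjusted p = 2.49e-11), whereas Egln3 and Bnip3, which hypoxia-inducible factors are known to induce, fell from 157, 150 and 168 CPM to 29.0, 30 and 30.6 CPM and from 347, 342 and 344 CPM to 78.2, 71.9 and 98.2 CPM. They were the calls among 12 tested hypoxia genes. Txnip, an arrestin that binds thioredoxin and limits glucose uptake, rose from 69.3, 78.1 and 75.7 CPM to 432, 404 and 438 CPM. Of 16 oxidative stress genes, 3 were higher and 1 lower (2 and 1 without the third OS 3 h library). Nqo1 rose from 341, 346 and 356 CPM to 763, 807 and 927 CPM and Gclm, which makes glutathione, fell from 188, 201 and 180 CPM to 50, 49.8 and 45.8 CPM, so targets of the factor NRF2 moved in both directions. Glycolysis gave 1 higher (Ldha) and 1 lower call (Pfkfb2) among 14 tested genes, and the call of Ldha was lost under median-ratio scaling and without the third OS 3 h library. Of 12 TCA cycle genes, Pck2, Mdh2 and Fh were higher, and Mdh2 and Fh lost their calls under median-ratio scaling. None of 6 tested clock genes and 8 nuclear receptors passed the test. Of 18 sterol and fatty acid synthesis genes, 3 were higher and 1 lower (2 and 1 without the third OS 3 h library). Of 14 tRNA synthetase genes 3 were higher, against 4 without that library and 1 after median-ratio scaling. Of 8 Kruppel-like and SP factors 2 were higher and 1 lower, 1 of 6 integrins was higher (Itgax) and 1 of 6 laminins lower (Lama4). Without the third OS 3 h library 0 integrins were higher and 2 laminins lower, and Itgax also lost its call without the first CON library (adjusted p = 0.0613).

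Hopx, a homeodomain-only protein, was listed at 0, 0.975 and 0 CPM in CON and at 5.33, 5.06 and 6.22 CPM in OS 3 h (2.38, SE 0.31, adjusted p = 1.71e-07). Tead3, a partner of the YAP co-activator, and Zfp879 were lower and Ybx3 higher, at levels under 20 CPM, and the call of Ybx3 was lost under median-ratio scaling and without the third OS 3 h library, in which it was listed at 19.0 CPM against 7.05 and 6.16 CPM in the others. Zbtb25, at no more than 1.15 CPM, had a log2 difference of -0.85 and was not called. It was called lower with a pseudocount of 0.1 (-2.84, adjusted p = 0.000189) and in edgeR (-3.97, adjusted p = 0.000673).

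Against the other media at 3 h, which share the change of medium, far fewer genes differed. Of the 4363 genes, 334 (7.66%) differed from AD 3 h, 121 (2.77%) of them higher and 213 (4.88%) lower in OS. From CH 3 h, 319 (7.31%) differed, 98 (2.25%) of them higher and 221 (5.07%) lower. These are direct comparisons in which CON does not enter the difference, although the spread was estimated from all 10 groups. Fitted on the 6 samples of each comparison alone, 252 genes differed from AD 3 h and 253 from CH 3 h. None of the tested mitosis, DNA replication and ribosome biogenesis genes reached the size threshold against either medium, their differences lying between -0.74 and 0.98 log2 units. Some smaller differences had an adjusted p under 0.05, against AD for 2 mitosis and 6 ribosome biogenesis genes, and against CH for 2 mitosis, 6 replication and 3 ribosome biogenesis genes. Cdc20 had means of 238 CPM in OS, 119 CPM in AD and 319 CPM in CH (0.98 against AD, adjusted p = 0.00753), and Rrp12 of 505, 304 and 353 CPM (0.71 against AD, adjusted p = 0.000337). Of the integrated stress response genes, 0 were higher and 2 lower than in AD and 2 higher and 0 lower than in CH. Mgp, Sfrp2, Lum, Frzb and Alpk1, among the 15 largest falls, were not called against either medium, and neither were 4 others of the 15. Below the size threshold, Alpk1 was lower than in AD (-0.45, adjusted p = 0.0418) and CH (-0.64, adjusted p = 0.00333), and Mgp lower than in CH (-0.68, adjusted p = 0.0356). Of the 15 largest rises, 13 differed from CH 3 h and 6 from AD 3 h.

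Gldn was at 235, 241 and 227 CPM in CH 3 h but at 6.30, 8.81 and 6.25 CPM in AD 3 h. Has2 and Dusp4 had means of 416 and 257 CPM in AD 3 h but of 48.3 and 16.0 CPM in CH 3 h. Dhrs3 was lowest in OS, with means of 84.3 CPM in AD 3 h and 773 CPM in CH 3 h, the latter above all CON libraries. Sox9 was at 17.0 CPM in AD 3 h and 603 CPM in CH 3 h, so OS lay between them and differed from both. Akap12 and Epha2 were higher in OS than in either medium, with means of 11.2 and 14.1 CPM for Akap12 in AD and CH against 72.7, 63.5 and 112 CPM in OS and of 190 and 160 CPM for Epha2. Hopx was also higher than in both, which had means of 1.54 and 1.45 CPM, and so was Id3, at 78.1 and 87.0 CPM. Tsc22d3 was lower in OS than in AD (166 CPM), and the difference from CH (131 CPM) was not called. Dlx3, the higher osteoblast gene, had a mean of 232 CPM in AD 3 h, above OS, and of 30.3 CPM in CH 3 h.

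**Figure D4:**
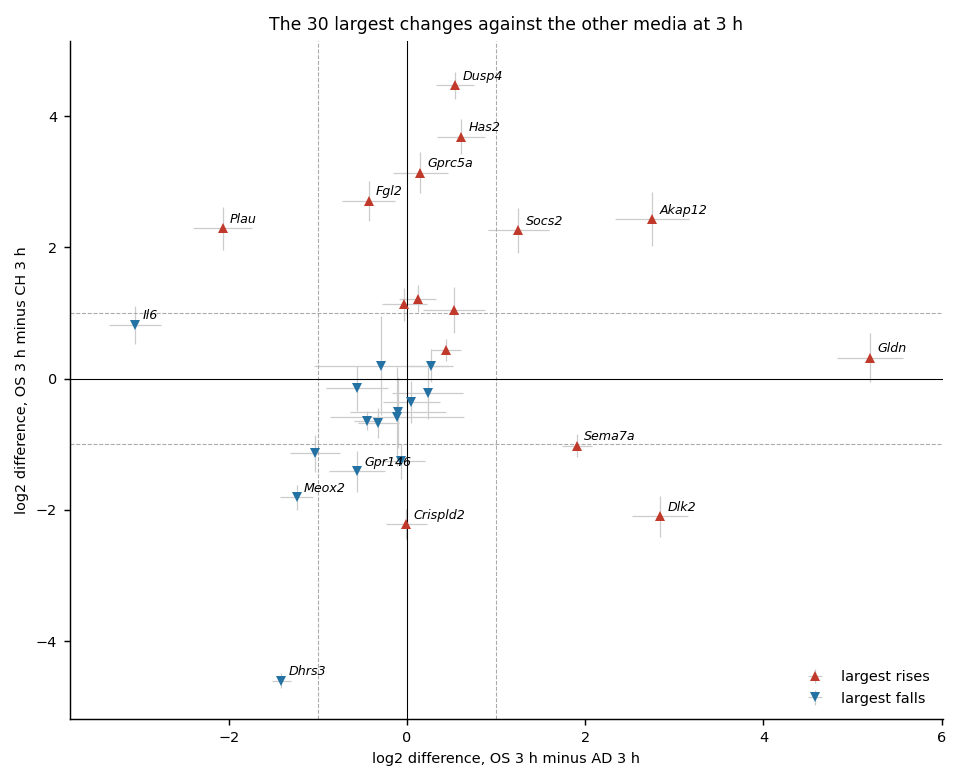
Log2 difference of OS 3 h from AD 3 h (horizontal) and from CH 3 h (vertical) for the 15 largest rises (red) and 15 largest falls (blue) against CON, with SEs of the limma model as grey bars and dashed lines at 1 and -1. Gldn is far to the right and Dusp4, Has2 and Gprc5a far up, Dhrs3 is far down, and most of the falls lie near the centre.

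Later osteogenic samples are given as a description. Of the 24 mitosis genes called higher at 3 h, 22 had a higher mean at 12 h than at 3 h, and 20 had a mean below CON at 3 d. All 14 replication genes were higher at 12 h than at 3 h, and 12 were below CON at 3 d, as for Mcm6, with means of 1212 CPM at 12 h and 46.2 CPM at 3 d. All 10 histone genes were below CON at 3 d. Ribosome biogenesis and integrated stress response genes took another course, as 3 of 12 and 1 of 9 had a higher mean at 12 h than at 3 h, and 10 of 12 and 9 of 9 were above CON at 3 d. Of the 15 largest rises, 14 had a lower mean at 12 h than at 3 h, Adamts8 being the exception at 188 CPM, and all 15 were lower at 3 d than at 3 h. Sema7a was at 20.1 CPM at 12 h and Gldn at 136 CPM, so the former had lost most of its rise. Mgp was at 143 CPM at 12 h and at 5194 CPM at 3 d, above CON, and Meox2 at 69.4 and 654 CPM. Il6 remained at 0.554 and 0.549 CPM, and Tsc22d3 was at 74.7 and 716 CPM.

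**Figure D5:**
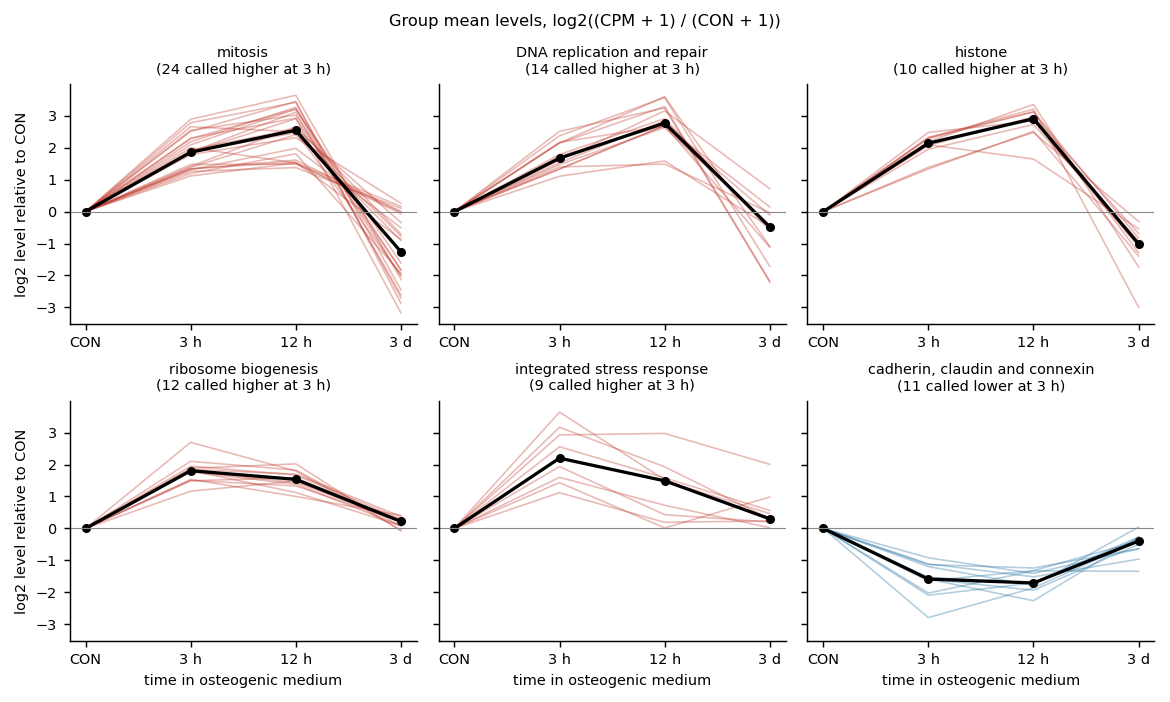
Mean level in CON and at 3 h, 12 h and 3 d of osteogenic medium, as log2((CPM + 1)/(CON + 1)), with the times as even steps, for the members called at 3 h in each of 6 gene lists (thin lines, 1 per gene) and their median (black). Mitosis, replication and histone genes are highest at 12 h and mostly below CON at 3 d, while ribosome biogenesis and integrated stress response genes return to just above CON.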

How the data were processed

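RNA-seq of 30 samples (10 groups of 3) was available, of which 6 form the main comparison. The authors deposited 1 value per gene under the name FPKM, but all values of a sample (100%) are integer multiples of a single increment, within 0.02 reads, whatever the gene. The deposited values are therefore CPM, and reads and library totals were recovered from the increment. Per the labels, Trimmomatic, HISAT2 and StringTie were used; their versions, the genome build and the counting were not given in the sources used here, and the study's methods name an mRNA kit where the labels name ribosomal RNA removal. Values of the 729 gene names that occurred more than once were summed. Of the names, 8356 matched a RefSeq symbol (GRCr8) and 445 a synonym, and 15 were spreadsheet dates.

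A gene was tested if 3 or more of the samples had 1 CPM or more. The test was limma 3.58.1 (R 4.3.3, eBayes with trend) on log2(CPM + 1), with 30 samples, 10 groups and no covariate. Calls needed a change of 1 log2 unit or more and a p, adjusted by Benjamini-Hochberg, under 0.05. The scripts were tested on simulated data. The alternatives tried were pseudocount 0.1, all genes unfiltered, quantile, median-ratio and equal-sum scaling, a fit on the 6 samples, a replicate block, each library left out, rows tested apart, and edgeR 4.0.16 (quasi-likelihood) on the recovered reads. Named were the 15 largest rises and falls whose groups do not overlap and whose higher mean was at least 5 CPM, up to 5 called members in each direction of each of 51 gene lists, the first 6 entries of 4 lists, and genes discussed by the study; further members of the lists were chosen after their values were seen, as were the genes set beside other media and times. The samples, the lists and their tests were chosen with earlier results of these data known. Lists are described by counts and medians, with no set test. Promoters were the 250 bases before a RefSeq start, and the CCAAT box and cell cycle homology region were searched after the data had been seen. The remaining steps used Python 3.11.15 (numpy 2.4.6, pandas 2.3.3, matplotlib 3.10.9).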

Additional observations from a re-analysis of the deposited data

Results flagged for a closer look

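Of the 185 named genes called against CON, 71 also differed between OS 3 h and another medium at 3 h. The direct test (limma, Benjamini-Hochberg adjusted) gave 95 differences in all. Over all tested genes, 7.66% differed from AD 3 h and 7.31% from CH 3 h. Most named genes were chosen by their change in the same OS 3 h libraries, so a higher share among them is partly built in. The 34 differences of at least 2 log2 units are given here, as OS 3 h minus the other medium, with adjusted p between 2.64e-24 and 0.00395. The other 61 were smaller.

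Against AD 3 h, Gldn differed by 5.20, Hoxd13, a homeobox gene of the distal limb, by 3.10, Dlk2 by 2.84 and Nppb, which encodes a natriuretic peptide and was listed at 0 in AD, by 2.83. Akap12 was higher by 2.75, Ctgf by 2.66, Sox9 by 2.50 and Sox11 by 2.08. Lower in OS than in AD were the growth arrest gene Gadd45a (-3.72), the Notch ligand gene Dll1 (-3.64), Il6 (-3.05) and the aggrecanase gene Adamts4 (-2.37). Lgr5 differed by -2.26, Jun by -2.20, Tgfbr3 by -2.17, Inhbb by -2.14 and Plau by -2.07.

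Against CH 3 h, Dusp4 was higher by 4.47 and Dusp6 by 2.83, both ERK phosphatases, and Has2 by 3.69, Gprc5a by 3.14, Fgl2 by 2.71 and Cxcl1 by 2.62. Akap12 was higher by 2.43, Plau by 2.29, Socs2 by 2.26, Epha2 by 2.21 and Efnb2 by 2.14. Lower in OS than in CH were Dhrs3 (-4.60), Sox9 (-2.57), Lgr5 (-2.42), Rgcc (-2.41), Crispld2 (-2.22) and Dlk2 (-2.10). Plau, Sox9 and Dlk2 thus lay between the other media, whereas Akap12 was above and Lgr5 below both.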

How the results depend on the processing

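Between OS 3 h and CON, the number of genes called lay between 739 (fit on the 6 samples) and 1016 (pseudocount of 0.1) with limma, and was 749 after quantile normalization, 795 after median-ratio scaling, 781 with the same sum over the listed genes, 792 without the filter and 816 with rows tested apart. The split depended on the scaling, as higher genes made up 50.2% after quantile normalization, 47.3% after median-ratio scaling, 45.1% with equal sums and 45.1% in edgeR, which called 1002 genes. The lower genes numbered 550 in edgeR against 291 with limma, and those higher than in CH 3 h 158 against 98. With each library left out in turn, the genes called numbered 766 to 885 (461 to 578 higher and 289 to 307 lower), 307 to 359 against AD 3 h and 296 to 344 against CH 3 h. No gene called with limma changed its sign in any alternative. Of the named genes, 29 lost their call after quantile normalization, 27 with equal sums, 23 after median-ratio scaling, 22 in edgeR and 17 without the third OS 3 h library. Most of them had a log2 fold change near 1. The labels number the replicates of each group but do not say that a number marks a shared culture or day. The correlations of the deviations of same-numbered samples were -0.016, 0.026 and 0.061. With 3 samples per group these cannot decide whether a number marks a shared culture or day. The fit with a replicate block called 801 genes, 510 of them higher, against CON, 330 against AD 3 h and 319 against CH 3 h. Depth limits what can be said of genes under about 1 CPM, and genes that every cell uses were listed near 0.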

Other observations

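Of 87 tested solute carrier genes, 9 (10.3%) were higher and 4 (4.6%) lower, near the 11.7% and 6.67% over all genes tested, and 8 were higher without the third OS 3 h library. Slc25a5, an ADP/ATP carrier of mitochondria, rose from 33.9, 31.8 and 40.5 CPM to 188, 198 and 431 CPM (log2 fold change 2.81, SE 0.20, adjusted p = 1.15e-12, limma), the third OS 3 h library being the highest, and the scaffold gene Slc9a3r1 fell from 369, 409 and 422 CPM to 113, 107 and 139 CPM. Of 46 zinc finger genes of the Zfp and Zbtb kind, 3 were higher and 4 lower. Their shares were 6.52% and 8.7%, where all tested genes had 11.7% and 6.67%. With median-ratio scaling these counts became 3 and 6. Collagen genes were higher in 2 and lower in 2 of 11 tested members, all at means of under 14 CPM. Hoxd13 was the single call among 7 tested HOX genes, beside which 2 were lower without the third OS 3 h library and 1 after median-ratio scaling. It was listed at 1.86, 1.25 and 1.82 CPM in CON and 19.9, 18.3 and 11.8 CPM in OS 3 h. Interferon and antigen presentation genes had 1 higher call of 14 (Cxcl10), and 1 higher and 2 lower after median-ratio scaling or without the third OS 3 h library.

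Nppb was listed at 0 in all CON and AD 3 h libraries and at 4.70, 5.53 and 8.58 CPM in OS 3 h. Lama4 and Sema3a were listed at 0 in all OS 3 h libraries and at 0.836 to 1.67 and 0.758 to 1.53 CPM in CON. Over all calls, 13 higher genes were listed at 0 in every CON library and 8 lower genes at 0 in every OS 3 h library. Without a gene symbol were 30 higher and 15 lower genes, which are counted but not named.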
